A study of Rattus norvegicus with 12 samples.

Results

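The comparison described here set hepatocytes isolated from rats 30 h after death against hepatocytes isolated from heart-beating rats. Its samples were chosen by their titles: 3 arrays of donors dead for 30 h and 3 of heart-beating donors, 6 of the 12 arrays of the series. The other 6 arrays, 3 of donors dead for 4 h and 3 of donors dead for 16 h, entered the model for its estimate of the spread and served to place the changes in time. Every donor was a separate rat of the strain that the labels call Fischer 334, and each array held the RNA of 1 donor. The hepatocytes were freed from the liver by collagenase perfusion and were not cultured. The labels do not give age, sex, the cause of death or how the bodies were kept. All measured probe sets (short sets of probes that together read 1 stretch of a transcript) that carried 1 gene symbol were members, 20826 of the 31099 rows of the table, and they stood for 14217 genes.

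After death the liver no longer receives oxygen, and its cells cannot make ATP by oxidative phosphorylation. The level of a transcript is set by the balance of its synthesis and its decay, and transcripts differ widely in how fast they decay. Hepatocytes carry large amounts of RNA for plasma proteins, for the urea cycle, for lipid and amino acid metabolism and for mitochondria, and they express the circadian clock strongly. On this kind of array the labelled RNA is copied from the poly(A) tail, so a probe set reads the stretch of a transcript it was designed for and not the whole transcript.

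The labelled cell type was checked against its markers. Of 14 measured hepatocyte markers 7 fell (50%), 1 rose (Fgb) and 1 was split between its probe sets. That share is near the 42.3% of all genes with a mean log2 signal of 10 or more, a class that held 92.9% of these markers. The log2 of the summed marker signal ranged from 16.76 to 16.82 in heart-beating donors and from 16.61 to 16.71 at 30 h. Without the first 30 h animal 4 fell, and after cyclic loess or a further quantile normalization 3 or 4 did. Albumin (Alb) read 14.23, 14.22 and 14.25 in heart-beating donors and 14.14, 14.20 and 14.20 at 30 h by the probe set with the lower p, near the top of the scale of 14.51, and its difference (-0.05, SE 0.06, adjusted p = 0.553) did not pass. After cyclic loess the same probe set read 0.20 higher at 30 h (adjusted p = 0.0325), so no direction is given for it. Cyp2e1, a cytochrome P450 of ethanol and drug metabolism, read 13.55, 13.57 and 13.44 against 13.10, 13.40 and 13.35, a difference of -0.24 (adjusted p = 0.0470) that shrank to -0.017 after cyclic loess (adjusted p = 0.878). Its call was also lost without any 1 array other than those of 30 h animals 2 and 3 (-0.28 to -0.15).

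RNA quality differed between the groups. The 3' control probe set of Gapdh, a glycolytic enzyme, exceeded its 5' control probe set by 0.45, 0.41 and 0.31 log2 units in heart-beating donors 1 to 3, and by 2.31, 1.82 and 1.79 in 30 h animals 1 to 3, a mean difference of 1.58. For Actb, a cytoskeletal actin, the values were 1.86, 1.90 and 1.80 against 2.75, 2.92 and 2.95, a mean difference of 1.02, or 1.25 after a further quantile normalization. The groups did not overlap for either transcript (exact two-sided permutation p = 0.1, the smallest that 3 arrays against 3 can give). The hexokinase control was dim, at 3.62 to 3.86 at its 5' end, and its difference of -0.08 lay within the spread (exact p = 0.3). Each 30 h array differed from each heart-beating array in Gapdh, and with that difference entered as a covariate the median SE grew from 0.0869 to 0.307 and 0 of the calls described here passed (limma; 3055 probe sets at an unadjusted p under 0.05). Among the probe sets called without the covariate, 63.8% kept their direction with it.

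**Figure D1:**
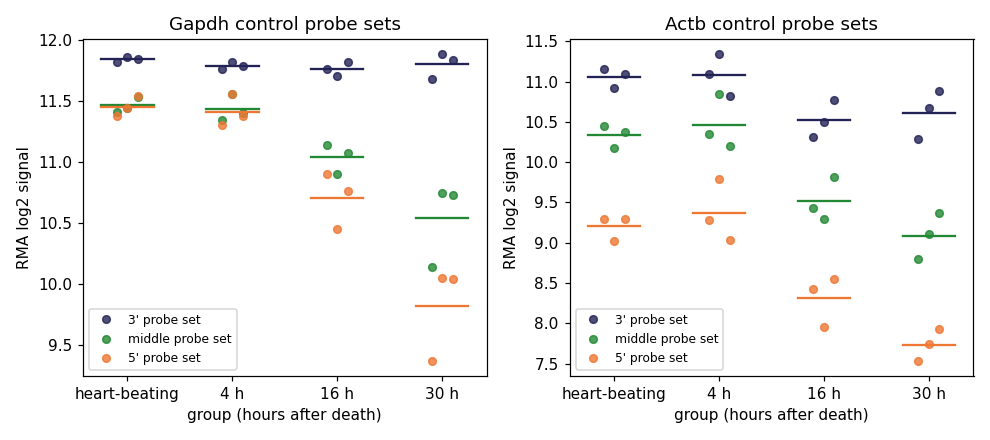
RMA log2 signal (vertical axis) of the 3', middle and 5' control probe sets of Gapdh (left) and Actb (right) in each group; points are the 3 arrays and lines their means. The 3' signal of Gapdh at 30 h (11.68 to 11.88) overlapped that of heart-beating donors (11.82 to 11.86), while the 5' signal (9.37 to 10.05) lay below theirs (11.37 to 11.54).

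At 30 h limma called 4865 of 20826 probe sets (23.4%) at an adjusted p under 0.05, 2368 higher (11.4%) and 2497 lower (12%). The median log2 difference was 0.41 among those called higher and -0.45 among those called lower, and 0.01 over all genes by their brightest probe sets. Falls of at least 2-fold were more numerous than rises of that size, 260 probe sets (1.25%) against 46 (0.221%). The latter count was 77 without the third 30 h animal. The 3 arrays of 30 h all lay above those of heart-beating donors in 3525 probe sets (16.9%) and all below in 4066 (19.5%). In the sections that follow a gene rose where at least 1 of its probe sets was called higher and none lower, fell in the opposite case, and was split where probe sets were called both ways. By that rule 1897 of 14217 genes rose (13.3%), 2010 fell (14.1%) and 258 were split (1.81%). The shares moved with the number of probe sets and with signal. Of 9692 genes with 1 probe set 10.1% rose and 11.5% fell, against 20.3% and 19.8% of 4525 with 2 or more. By the mean log2 signal of the brightest probe set, 11.4% rose and 8.67% fell of 10809 genes under 8, 21.8% and 27.9% of 2565 from 8 to 10, and 12.6% and 42.3% of 843 at 10 or more. The count of each gene group is to be read against the class its genes belong to.

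The 12 largest falls included transcripts of a plasma protein, of hormone receptors and of proteins of membrane traffic. Mug1, a protease inhibitor of rodent plasma with a close paralog that its probes may also read, gave 9.50, 8.93 and 9.31 in heart-beating donors 1 to 3 and 5.05, 5.11 and 4.81 in 30 h animals 1 to 3 (-4.26, SE 0.31, adjusted p = 3.61e-06). All 3 values at 30 h lay below the medians of the arrays (5.83 to 5.90). The table gives no detection calls, so values that low are not shown to be above background, and the size of a fall that ends there is that of the RMA values alone. This holds as well for Ghr and other falls that end below the medians. Prlr, the prolactin receptor, read 11.27, 9.88 and 10.76 against 7.64, 7.36 and 7.48 by 1 probe set (-3.14, SE 0.29, adjusted p = 1.55e-05), with donor 2 the lowest of the heart-beating donors. Its other probe sets differed by -0.43 and -0.04, neither called. Ghr, the growth hormone receptor, read 8.61, 8.10 and 8.39 against 5.29, 5.75 and 5.67 (-2.79, SE 0.17, adjusted p = 1.69e-06), and its second probe set, at 11.35, 10.98 and 11.01 against 10.38, 10.64 and 10.37, was called lower as well (-0.65, SE 0.12). The groups were apart in the second probe set of Ghr as well as in the first, where the choice of the 12 falls required it.

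Arf1, a small GTPase that recruits vesicle coats at the Golgi, fell by both of its probe sets: 8.92, 8.70 and 9.02 against 5.73, 6.21 and 5.82 in 1 (-2.96, SE 0.14, adjusted p = 9.39e-08) and -0.86 in the other. Arl1, a related GTPase of the trans-Golgi, read 8.05, 7.91 and 8.07 against 5.72, 5.96 and 5.78 (-2.19, SE 0.14, adjusted p = 1.69e-06), while its second probe set differed by 0.20 and was not called. Reep6, which shapes the endoplasmic reticulum, read 8.45, 7.54 and 8.72 against 5.69, 5.93 and 5.94 (-2.38, SE 0.28, adjusted p = 8.11e-05), again with 1 of 2 probe sets called. Arpc2, a subunit of the Arp2/3 complex that branches actin filaments, read 8.11, 7.89 and 8.27 against 5.48, 6.46 and 5.75 (-2.19, SE 0.20) by 1 probe set and differed by -0.11 by the other. In none of these 4 genes did the 30 h arrays reach the heart-beating range in the probe set that changed most. Their choice among the largest falls without overlap required this.

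Genes of lipid and amino acid metabolism were also among the 12 largest falls. Cd36, a fatty acid transporter, read 10.21, 9.17 and 9.93 in heart-beating donors and 6.72, 7.24 and 6.99 at 30 h (6.88-fold lower; -2.78, SE 0.24, adjusted p = 1.03e-05). Thrsp, a nuclear protein that promotes lipogenesis, fell by all 3 of its probe sets, with 11.68, 11.89 and 12.01 against 9.29, 9.84 and 9.50 in the first (-2.32, SE 0.17), -2.19 in the second and -0.75 in the third. Hoga1, a mitochondrial enzyme of hydroxyproline breakdown, read 8.02, 7.83 and 8.11 against 5.26, 5.52 and 5.91 (-2.42, SE 0.18), and 2 of its 3 probe sets were called lower. Ccl6, a chemokine of macrophages, was tightly grouped in heart-beating donors at 10.61, 10.62 and 10.65 and read 8.05, 8.27 and 8.97 at 30 h (-2.20, SE 0.20). Every array of these 4 genes at 30 h lay below every heart-beating array in the probe set that changed most, which the choice of the 12 falls required.

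**Figure D2:**
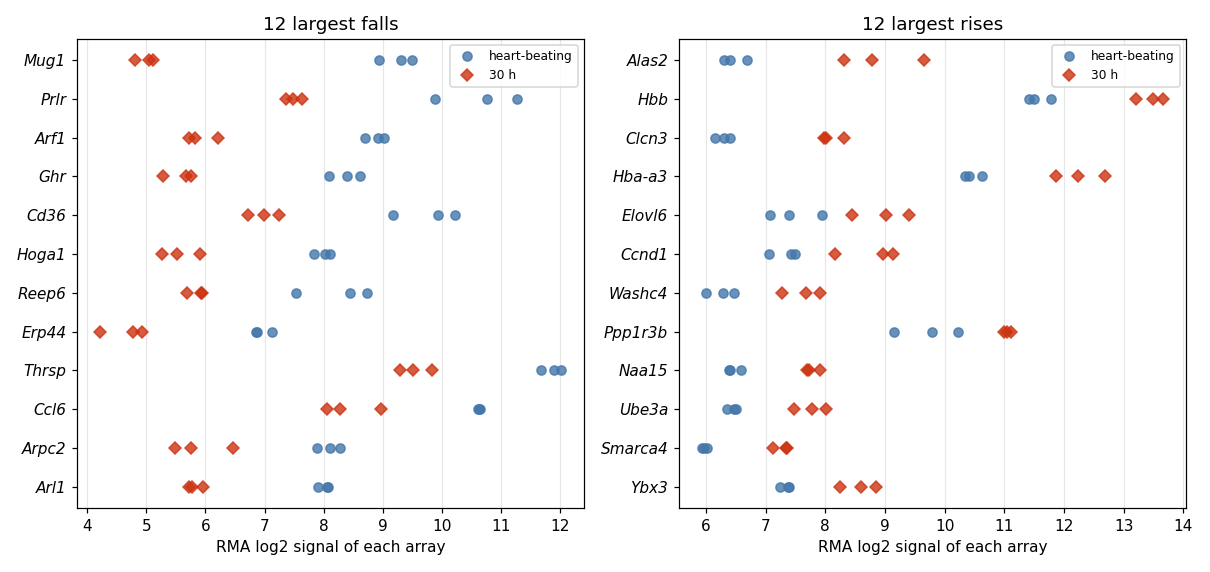
RMA log2 signal (horizontal axis) of the 12 genes with the largest falls (left) and the 12 with the largest rises (right), for the called probe set that changed most; each point is 1 array, 3 per group. The groups do not overlap, which the choice of these genes required, and the falls reach further (Mug1 at 4.81 to 5.11 against 8.93 to 9.50) than the rises (Alas2 at 8.31 to 9.65 against 6.29 to 6.69).

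Of the 4 largest rises 3 were in transcripts of red cells. Alas2, the erythroid enzyme that starts heme synthesis, read 6.29, 6.40 and 6.69 against 9.65, 8.31 and 8.78 (5.48-fold higher; 2.45, SE 0.53, adjusted p = 0.00490). Hbb and Hba-a3, globin genes with near-identical copies that their probes cannot separate, rose (differences of 1.89, SE 0.32, and 1.80, SE 0.31), with Hbb at 11.50, 11.42 and 11.78 against 13.66, 13.21 and 13.49. The first 30 h animal was the highest in all 3 genes. The 4 h animals differed widely in them, with Hbb at 13.38, 12.77 and 11.59, and the 16 h animals read 13.27, 13.55 and 13.43. Of 7 measured erythroid markers these 3 and Ahsp, which stabilizes free alpha globin, rose and 0 fell (limma; 5 higher and 0 lower at an unadjusted p under 0.05). The share that rose was 57.1%, beside 13.3% of all genes. The log2 of the summed erythroid signal was 12.08 to 12.40 in heart-beating donors and 13.75 to 14.33 at 30 h, and the part of red cells left in the preparations was not tested.

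The other large rises were in genes of varied function. Clcn3, a chloride and proton exchanger of endosomes, read 6.29, 6.41 and 6.15 against 7.97, 8.31 and 8.005 (3.51-fold higher; 1.81, SE 0.11, adjusted p = 1.69e-06), and 3 of its 4 probe sets were called higher. Elovl6, which elongates saturated and monounsaturated fatty acids, read 7.40, 7.08 and 7.94 against 8.44, 9.01 and 9.40 (1.48, SE 0.27, adjusted p = 0.00176). Its other probe set was called as well (0.88, SE 0.27), though there the lowest 30 h array lay below the highest heart-beating array. Ppp1r3b, which targets a phosphatase to glycogen, was tightly grouped at 30 h, with 10.99, 11.05 and 11.11 against 10.22, 9.15 and 9.78 in heart-beating donors (1.33, SE 0.25). Ccnd1, a cyclin of the G1 phase, read 7.43, 7.06 and 7.50 against 8.97, 9.13 and 8.17 (1.42, SE 0.22), and its 2 other probe sets differed by 0.35 and 0.42 without passing.

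Several of these rises rested on 1 of several probe sets. Naa15, a subunit of the main N-terminal acetyltransferase, read 6.59, 6.38 and 6.41 against 7.72, 7.92 and 7.70 (1.32, SE 0.13) by 1 probe set, while its 4 others differed by -0.33 to 0.23 and were not called. Washc4, of the WASH complex that forms actin on endosomes, read 6.47, 6.29 and 6.0003 against 7.68, 7.91 and 7.28 (1.37, SE 0.15) by 1 of 3 probe sets. Ube3a, a ubiquitin ligase, rose by 2 of 4, with 6.47, 6.51 and 6.36 against 7.77, 8.02 and 7.47 in the first (1.31, SE 0.11). Smarca4, the ATPase of the BAF chromatin remodelling complex, read 6.01, 5.96 and 5.93 against 7.34, 7.35 and 7.13 (1.31, SE 0.09), but another probe set, at 4.30, 4.21 and 4.37 against 3.70, 4.10 and 3.95, was called lower (-0.38, SE 0.09). The lower call of Smarca4 was lost when the 6 arrays of the 2 groups were fitted alone (adjusted p = 0.0506). Ybx3, a cold shock domain protein that binds RNA, had a single probe set, with 7.38, 7.24 and 7.39 against 8.85, 8.25 and 8.59 (1.23, SE 0.22).

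Probe sets of the same gene were set beside each other. They read the same RNA on the same arrays, so their agreement is no separate evidence on what differed between the groups. Of 4525 genes with at least 2 probe sets, 58 (1.28%) were called higher by all of them and 109 (2.41%) lower by all. A further 862 genes (19%) had some probe sets called higher and the rest not called, 788 (17.4%) had some called lower, 258 (5.7%) were called both ways and 2450 (54.1%) had none called. The counts with full agreement depended on single arrays: those higher by all were 34 and 32 without heart-beating donor 2 or 3 and 37 without the second 30 h animal, and those lower by all were 62 and 64 without donor 1 or 3 and 61 without the first 30 h animal. The split genes numbered 165 and 136 without donor 2 or 3. With the 6 arrays of the 2 groups alone the 3 counts were 26, 54 and 127.

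The 8 largest falls among genes whose probe sets were all called lower were Thrsp, Arf1, Ghr and the following 5. Rhoa, a GTPase that controls actin, read 8.88, 8.76 and 8.87 against 6.53, 6.70 and 6.97 (-2.10, SE 0.18, adjusted p = 1.05e-05) and 10.41, 10.26 and 10.28 against 8.52, 9.07 and 9.003 (-1.45, SE 0.14) by its 2 probe sets. Gulo, the last enzyme of vitamin C synthesis in rodents, read 8.86, 8.91 and 8.90 against 6.61, 6.94 and 7.03 (-2.03, SE 0.09, adjusted p = 9.39e-08) and differed by -1.10 by the other probe set. Eif3l, a subunit of the initiation factor eIF3, differed by -1.98 and -0.94, and Uqcrc2, a core subunit of respiratory complex III, by -1.89 and -1.01. Rpl7, a protein of the large ribosomal subunit with many processed pseudogenes, differed by -1.55 and -1.18.

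Among genes whose probe sets were all called higher, the 8 with the largest differences included a nuclear RNA and factors that bind RNA. Xist, the noncoding RNA that coats the inactive X chromosome, was called higher by all 4 of its probe sets, by 0.99 to 1.16. The first of them read 8.64, 8.79 and 8.62 against 10.03, 9.84 and 9.45, and the third 30 h animal was the lowest of the 3 in each. Srsf11, a splicing factor, read 7.28, 7.17 and 7.26 against 8.61, 8.45 and 8.03 (1.13, SE 0.13) and 8.70, 8.61 and 8.58 against 8.87, 9.15 and 8.98 (0.37, SE 0.08). Rnpc3, a protein of the minor spliceosome, was called higher by 3 of 3 probe sets (0.93, 0.998 and 0.51). Cpeb4, which regulates translation through the poly(A) tail, differed by 0.70 and 0.76, and Cog3, of the Golgi tethering complex COG, by 0.73 and 0.87. Sparc (0.79 and 0.65), and Gucy1b1 (0.71 and 0.62), which encode a matrix protein and a subunit of the nitric oxide receptor, completed the 8 with Elovl6. The first probe set of Sparc lost its call with array weights (adjusted p = 0.0639) and in the 6 arrays alone (adjusted p = 0.0518).

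In the split genes probe sets of 1 symbol were called lower and higher on the same arrays. Erp44, a chaperone of the early secretory pathway, read 7.13, 6.86 and 6.88 against 4.22, 4.77 and 4.92 by 1 probe set (-2.32, SE 0.17, adjusted p = 3.95e-06) and 8.83, 8.65 and 8.54 against 9.01, 9.29 and 9.16 by another (0.48, SE 0.09, adjusted p = 0.00179), both with the groups apart. Papola, the enzyme that adds poly(A) tails in the nucleus, read 9.35, 8.99 and 9.27 against 7.04, 7.94 and 7.56 (-1.69, SE 0.18) and 6.42, 6.19 and 6.50 against 7.03, 7.25 and 7.14 (0.77, SE 0.10). Vdac1, the main channel of the outer mitochondrial membrane, read 8.93, 8.97 and 9.04 against 6.94, 7.23 and 7.41 (-1.79, SE 0.13) and 10.31, 10.38 and 10.39 against 10.79, 10.87 and 10.68 (0.42, SE 0.06). Hnf4a, a nuclear receptor that maintains hepatocyte identity, was a further case, with 10.44, 10.38 and 10.21 against 11.08, 11.28 and 10.96 (0.76, SE 0.11) in 1 probe set and 7.38, 7.52 and 7.33 against 6.77, 6.88 and 6.75 (-0.61, SE 0.10) in another. For genes of this kind the arrays gave no single direction. In the first probe set of Erp44 the choice of the largest falls required the groups to be apart.

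Hacd3, an enzyme of very long chain fatty acid elongation, differed by -1.48 and 0.59, and the second of these lost its call without heart-beating donor 3 (0.54, adjusted p = 0.0502). Atl2, which fuses tubules of the endoplasmic reticulum, differed by -1.70 and 0.33. The smaller difference overlapped between the groups and was lost without any 1 of heart-beating donors 1 and 3, the second 4 h animal, the 16 h animals and 30 h animals 1 and 2 (0.19 to 0.37), among other settings. Rdx, which links actin to the membrane, was called higher by 1 probe set (9.24, 9.21 and 9.20 against 10.26, 10.12 and 9.83; 0.85, SE 0.11) and lower by 3 of the other 4, by -1.09 to -0.51. Cps1, which starts the urea cycle, was not split but unequal: 11.91, 12.16 and 11.89 against 9.72, 10.43 and 10.71 (-1.70, SE 0.19, adjusted p = 6.01e-05) by 1 probe set, and 13.10, 13.18 and 13.04 against 13.20, 13.20 and 13.17 (0.08, not called) by the other.

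**Figure D3:**
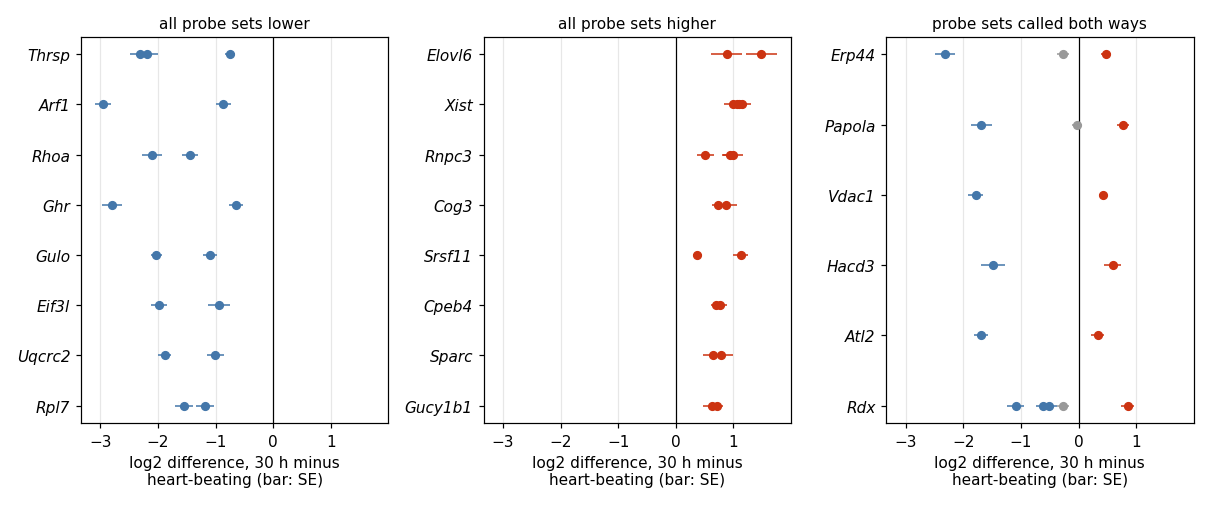
Log2 difference of 30 h minus heart-beating (horizontal axis, bars 1 SE) for every probe set of the 8 genes with the largest falls (left) and rises (middle) in which all probe sets were called the same way, and of the 6 genes with the widest split (right); blue is called lower, red called higher and grey not called. Within 1 gene the differences spread widely, as in Ghr (-2.79 and -0.65) and Erp44 (-2.32 and 0.48).

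What a probe set was designed on, and how bright it was, went with its call. Probe sets designed on a RefSeq transcript were called higher in 6.51% and lower in 16.4% of 2936 cases, against 12.1% and 11.2% of 17313 designed on other sequences. Within 877 genes that had both kinds, the RefSeq probe sets differed from the others by a median of -0.07 log2 units and were the lower in 534 genes. Among 903 probe sets with a mean log2 signal of 10 or more, 13.6% were called higher and 35.1% lower. Among 1923 between 8 and 9 the shares were 24.1% and 19.6%, and among 5350 under 5 they were 2.45% and 5.38%. These shares are descriptions, since probe sets of 1 gene and genes of 1 array are not independent.

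For every gene group that follows, the 3' to 5' difference of Gapdh separated the same arrays as the comparison, and its part was not tested. In the mitochondrial machinery for ATP falls far outnumbered rises. Of 39 measured genes of respiratory complex I, which oxidizes NADH, 20 fell and 2 rose (Ndufaf4, an assembly factor, and Ndufb7), with a median log2 difference of -0.28 by the brightest probe sets. Of 28 genes of complexes II to IV 21 fell and 1 rose (Cox10, of heme A synthesis), with a median of -0.35. The shares that fell were 51.3% and 75%, beside 42.3% of all genes with a signal of 10 or more, a class that held 69.2% and 67.9% of the members of these 2 lists. Ndufb8, an accessory subunit of complex I, read 7.93, 7.87 and 7.92 against 6.16, 6.46 and 6.51 (-1.53, SE 0.10, adjusted p = 2.79e-06), and Ndufa8, another, differed by -1.04, SE 0.10. Cox5a, a subunit of cytochrome c oxidase, read 9.55, 9.39 and 9.42 against 8.04, 8.39 and 8.61 (-1.11, SE 0.12), and Sdhd, a membrane anchor of succinate dehydrogenase, was called lower by both probe sets (-1.13 and -0.49). Of 16 genes of ATP synthase 9 fell (56.2%), 1 rose (Atp5f1e) and 1 was split (Atpaf1). In the bright class given above, which held 75% of this list, 42.3% fell. The 9 became 5 without heart-beating donor 3 or with the 6 arrays alone. Atp5pb, of the peripheral stalk of the enzyme, read 12.11, 12.05 and 12.13 against 9.46, 10.28 and 10.31 (-2.08, SE 0.18), with the first 30 h animal the lowest. Atp5mg, of the membrane part of the enzyme, read 11.68, 11.51 and 11.66 against 9.29, 9.94 and 10.16 (-1.82, SE 0.18).

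The falls extended to the pathways that feed the respiratory chain. In the tricarboxylic acid cycle and pyruvate dehydrogenase 13 of 24 genes fell (54.2%), 3 rose (Aco1, Idh1 and Cs) and 1 was split (Pdk2). Without the first 30 h animal 8 fell. For comparison, 14.1% of all genes fell, and 42.3% of those with a signal of 10 or more, which made up 29.2% of this list. Dld, a component shared by the dehydrogenase complexes, read 9.20, 9.08 and 9.19 against 7.56, 8.36 and 8.41 (-1.05, SE 0.17). Aco1, the cytosolic aconitase, read 9.59, 9.62 and 9.60 against 10.12, 10.29 and 10.10 (0.57, SE 0.07). Pdk1, a kinase that switches pyruvate dehydrogenase off, was called lower by 1 of 2 probe sets (-1.59), and Pdk2, a related kinase, read 0.66 and -0.47. In fatty acid oxidation and ketogenesis 15 of 31 genes fell, 5 rose (Acad11, Acsl5, Slc27a2, Slc27a5 and Eci1) and 1 was split (Acat1). The share that fell was 48.4%, beside 42.3% of all genes with a signal of 10 or more. That class held 51.6% of this list. Hadh, a dehydrogenase of the oxidation spiral, was called lower by both probe sets (-0.75 and -1.17). Decr1, which prepares polyunsaturated fatty acids for that spiral, read 10.52, 10.59 and 10.47 against 9.37, 9.92 and 9.72 (-0.85, SE 0.12). Bdh1, which makes the ketone body hydroxybutyrate, read 8.87, 9.005 and 9.01 against 7.70, 8.38 and 7.78 (-1.01, SE 0.13) by 1 probe set, and the other was not called (0.29).

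Many genes that build mitochondria fell as well. Of 71 proteins of the mitochondrial ribosome, which translates the genes of the organelle, 37 fell and 3 rose (Mrpl54, Mrpl38 and Mrps2), with a median of -0.26. None of the 71 had a signal of 10 or more, and the share that fell was 52.1%, beside 14.1% of all genes. Mrpl17 read 10.07, 10.08 and 10.22 against 8.85, 9.17 and 9.16 (-1.06, SE 0.10, adjusted p = 1.43e-05), and Mrpl51 was called lower by 2 of 4 probe sets (-1.53 and -0.79). In protein import and the cristae 18 of 40 fell (45%), 5 rose (Timm10b, Timm44, Timm9, Opa1 and Tomm40) and 3 were split (Vdac1, Immt and Timm8a1). Of this list 20% had a signal of 10 or more, a class in which 42.3% of all genes fell. The 5 rises became 3 after cyclic loess, 2 in the 6 arrays alone, 1 without heart-beating donor 2 or 3, 0 without the second 30 h animal and 2 without the third. Micos13, which holds cristae junctions together, read 10.61, 10.68 and 10.61 against 8.10, 8.86 and 8.94 (-1.996, SE 0.18), and Apool, of the same complex, read 8.05, 7.93 and 7.94 against 6.95, 6.92 and 6.67 (-1.13, SE 0.09).

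Genes that make and remove proteins gave more falls than rises in 3 of 4 lists, with many members not called. Of 42 cytosolic ribosomal proteins measured (of 79 listed) 21 fell, 0 rose (4 had a probe set higher at an unadjusted p under 0.05 in limma) and 1 was split (Rps24, 1.04 and -0.69), with a median of -0.25. The share that fell was 50%, near the 42.3% of all genes with a signal of 10 or more, to which 90.5% of the measured members belong. Rpl41 read 11.88, 11.84 and 11.85 against 10.67, 10.89 and 11.18 (-0.95, SE 0.11), and Rps16 read 11.58, 11.62 and 11.65 against 10.18, 10.38 and 10.99 (-1.11, SE 0.16). Of 46 factors of translation initiation and elongation 23 fell (50%), 19 were not called and 4 rose (Eif2b5, Eif4g1, Eif2a and Eif4b). The bright class held 21.7% of these factors, and over all genes 14.1% fell. Eif4g2, which supports initiation without the cap-binding protein, read 7.79, 7.54 and 7.56 against 5.49, 5.63 and 5.63 (-2.05, SE 0.14, adjusted p = 3.47e-06) by 1 of 3 probe sets, and Eif1a, of the scanning complex, fell by 1 of 4 (-1.52, SE 0.14).

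Of 44 proteasome genes 22 fell (50%) and 18 were not called, 2 rose (Psmf1 and Psma3) and 2 were split (Psme4 and Psmd7), with a median of -0.31. Over all genes 14.1% fell, and 42.3% of those with a signal of 10 or more, which made up 31.8% of the proteasome list. Without heart-beating donor 3 the falls numbered 13, and without the first 30 h animal 14. Psmd14, the deubiquitinase of the lid, was called lower by all 3 probe sets, with 8.94, 8.87 and 8.96 against 7.34, 7.65 and 7.86 in the first (-1.31, SE 0.12) and -2.11 and -0.9997 in the others. Psmd8, another lid subunit, read 9.32, 9.35 and 9.37 against 7.78, 8.54 and 8.41 (-1.10, SE 0.16). Aminoacyl tRNA synthetases, which charge tRNA with amino acids, did not share that direction. Of 33 genes 8 rose (24.2%), 6 fell (18.2%) and 4 were split (Eprs1, Vars1, Hars1 and Mars1). Those shares lay near the 20.3% and 19.8% of all genes with 2 or more probe sets, a class that held 45.5% of this list. Tars1 read 9.23, 9.35 and 9.04 against 9.94, 10.14 and 9.88 (0.78, SE 0.11), and Eprs1 gave 0.83 and -0.54 by its 2 called probe sets. Among the upper 50% of probe sets by mean signal 3 of this list fell.

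In 2 gene groups of the nucleus rises outnumbered falls. Of 85 chromatin regulators 35 rose, 5 fell (Rnf2, Smarcb1, Kat2b, Dnmt3a and Smarce1) and 7 were split, with a median log2 difference of 0.23. The share that rose was 41.2%, beside 20.3% of all genes with 2 or more probe sets, a class that held 64.7% of this list. The 5 falls became 3 without the third 30 h animal. Mga, which represses through the MAX network, read 6.004, 6.03 and 5.82 against 7.08, 7.42 and 7.01 (1.22, SE 0.16, adjusted p = 0.000214). Ep300, a histone acetyltransferase, read 8.79, 8.63 and 8.69 against 9.43, 9.34 and 9.10 (0.58, SE 0.08), and Med1, a subunit of the Mediator that binds nuclear receptors, read 6.11, 5.97 and 6.04 against 6.66, 6.77 and 6.67 (0.66, SE 0.09). Each of these 3 genes was called by 1 of its 2 or 3 probe sets. Of 72 splicing factors 29 rose (40.3%), 12 fell (16.7%) and 3 were split (Hnrnpa2b1, Srsf10 and Luc7l), with a median of 0.15. The class with 2 or more probe sets held 41.7% of the splicing list. The rises numbered 19 without heart-beating donor 3.

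Within the splicing factors, 2 of the 4 genes with the smallest p fell. Hnrnpr read 7.71, 7.57 and 7.65 against 6.88, 6.73 and 6.67 (-0.88, SE 0.08, adjusted p = 1.29e-05), and Sf3b5, a small subunit of the U2 particle, read 8.52, 8.32 and 8.38 against 6.57, 7.18 and 7.10 (-1.45, SE 0.15). Hnrnpa2b1 was called lower by 1 probe set (-1.29) and higher by 2 others (0.38 and 0.32). The first of its higher calls was lost without heart-beating donor 1 (adjusted p = 0.0533). Of 49 hepatocyte transcription factors and nuclear receptors 13 rose (26.5%), 8 fell (16.3%) and 4 were split (Hnf4a, Cebpa, Thrb and Nr2f6). Among all genes with 2 or more probe sets, a class that held 46.9% of this list, 20.3% rose and 19.8% fell. Onecut2, a homeodomain factor of liver and bile duct, was called higher by 2 of 4 probe sets, with 9.16, 8.69 and 8.94 against 9.77, 9.63 and 9.72 in the first (0.78, SE 0.11). Atf5, a factor of the mitochondrial and endoplasmic reticulum stress responses, read 10.76, 10.56 and 10.40 against 11.47, 11.52 and 11.28 (0.85, SE 0.12).

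In the cytoskeleton and cell adhesion 18 of 44 genes rose (40.9%), 11 fell (25%) and 2 were split (Rdx and Dst). Of all genes with 2 or more probe sets, a class that held 45.5% of this list, 20.3% rose and 19.8% fell. Cldn1, a tight junction protein, was called lower by 2 of 3 probe sets, with 5.77, 5.70 and 5.90 against 4.63, 4.68 and 4.81 in the first (-1.08, SE 0.10). Ctnnb1, the beta-catenin of junctions and Wnt signalling, read 7.76, 7.66 and 7.78 against 6.54, 6.84 and 6.90 (-0.97, SE 0.09) by 1 of 4. Actr2, which forms the core of the Arp2/3 complex that also holds Arpc2, read 9.84, 9.94 and 9.90 against 10.62, 10.60 and 10.49 (0.68, SE 0.07) by 1 of 3. In autophagy, where 43.9% of the genes had 2 or more probe sets, 11 of 41 rose (26.8%), 7 fell (17.1%) and 1 was split (Rab7a). The 11 became 6 and 7 without heart-beating donors 2 and 3 and 7 in the 6 arrays alone, and the 7 falls became 4 among the upper 50% of probe sets by mean signal. Atg12, a conjugating protein of the forming autophagosome, was called lower by 2 of 3 probe sets (-1.05 and -0.33). The lysosomal membrane proteins Lamp1 and Lamp2 differed by -0.99 and 0.58.

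In the secretory and degradative compartments falls outnumbered rises. Of 54 lysosomal hydrolases and membrane proteins 24 fell (44.4%) and 7 rose, and 12 rose after a further quantile normalization. Of all genes 14.1% fell, and 42.3% of those with a signal of 10 or more, a class that held 22.2% of the lysosomal list. Laptm4a, a lysosomal membrane protein, read 10.27, 10.49 and 10.60 against 9.25, 9.47 and 9.58 (-1.02, SE 0.10), and Asah1, the acid ceramidase, read 6.19, 6.35 and 6.31 against 5.44, 5.33 and 5.55 (-0.85, SE 0.07) by 1 of 2 probe sets. In endoplasmic reticulum stress and folding 13 of 47 fell, 4 rose (Syvn1, Hyou1, Edem2 and Ppp1r15b) and 2 were split (Atf6 and Derl1). The share that fell was 27.7%, beside 14.1% of all genes and 42.3% of those with a signal of 10 or more. That bright class held 36.2% of this list. Ssr3, of the translocon, was called lower by all 3 probe sets (-0.92, -0.73 and -0.47), and Sec61a1, the channel itself, by 1 of 3 (-1.13, SE 0.13). Atf6, a sensor of unfolded proteins, gave 0.70 and -0.38. Of 49 cytosolic chaperones and heat shock proteins 15 fell (30.6%), 7 rose (14.3%) and 1 was split (Dnajb2), with 4 rises without the second 30 h animal. The bright class held 8.16% of these chaperones. Dnajb1, a co-chaperone induced by heat, read 7.71, 7.85 and 7.92 against 6.77, 6.73 and 7.03 (-0.99, SE 0.10), St13, a co-chaperone of Hsp70, differed by -1.49, and Bag6, which guards tail-anchored proteins, by 0.81.

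Antioxidant and detoxifying enzymes fell more often than they rose, as did all genes with a signal of 10 or more (42.3% fell and 12.6% rose). That class held 32.4% of the glutathione list and 56.1% of the phase II list, in which 48.6% and 39% fell. Of 37 genes of glutathione, peroxide and oxidation repair 18 fell, 2 rose (Glrx2 and Cat) and 2 were split (Txnrd1 and Keap1), with a median of -0.26. Msra, which repairs oxidized methionine, read 7.44, 6.999 and 7.42 against 5.11, 5.19 and 5.09 (-2.16, SE 0.15, adjusted p = 3.61e-06). Glrx, a glutaredoxin of the cytosol, read 9.04, 8.76 and 8.97 against 7.003, 7.19 and 7.57 (-1.67, SE 0.14) by 1 of 2 probe sets, and Gpx4, which reduces lipid peroxides, was called lower by both (-1.14 and -0.28). Gsr, which regenerates reduced glutathione, read 6.58, 6.79 and 6.74 against 5.54, 5.76 and 5.86 (-0.98, SE 0.09). In phase II conjugation 16 of 41 fell, 2 rose (Gstp1 and Ugt2b35) and 1 was split (Nat1). Papss2, which makes the sulfate donor of sulfotransferases, read 9.21, 8.57 and 8.69 against 7.68, 7.08 and 7.32 (-1.46, SE 0.17) by 1 of 2 probe sets, and Gstm2, a glutathione transferase, differed by -1.19. Glutathione transferases of the mu class are close in sequence, and probes may read more than 1.

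Cytochrome P450 genes showed no common direction: 8 of 46 rose (17.4%), 6 fell (13%) and 32 did not pass. Over all genes 13.3% rose and 14.1% fell. The rises were 13 after cyclic loess, 3 without heart-beating donor 3 and 5 without the second 30 h animal or in the 6 arrays alone, and the falls were 3 without the first 30 h animal. Por, the reductase that supplies P450 enzymes with electrons, read 5.28, 5.87 and 5.47 against 4.24, 4.84 and 4.85 (-0.90, SE 0.17) by 1 of 2 probe sets. Cyp2j4, an epoxygenase, read 8.85, 8.87 and 8.81 against 9.27, 9.37 and 9.24 (0.45, SE 0.10).

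In the urea cycle and amino acid breakdown 28 of 66 genes fell, 7 rose and 3 were split (Slc25a13, Glud1 and Sardh). The share that fell was 42.4%, near the 42.3% of all genes with a signal of 10 or more. That class held 66.7% of this list. The median was -0.17, and 11 rose after cyclic loess or a further quantile normalization. Aldh6a1, of valine breakdown, read 8.92, 9.02 and 9.10 against 6.79, 7.39 and 7.61 (-1.75, SE 0.16) by 1 of 2 probe sets. Glul, glutamine synthetase, read 8.30, 7.92 and 8.46 against 6.64, 6.71 and 6.89 (-1.48, SE 0.15) by 1 of 3, and Gstz1, of tyrosine breakdown, read 11.46, 11.41 and 11.43 against 10.15, 10.41 and 10.42 (-1.11, SE 0.10). Tdo2, which starts tryptophan breakdown, fell by 1.20 on the log2 scale from 12.75, 12.35 and 12.51 to 10.93, 11.41 and 11.67. Slc25a13, the aspartate and glutamate carrier citrin, gave -1.23 and 0.27. The second value lost its call without heart-beating donor 3 (0.23) and without the second or the third 30 h animal (0.23 and 0.24). In peroxisomes 14 of 41 fell, 6 rose and 1 was split (Gnpat), with 3 rises without donor 3 and 9 falls in the 6 arrays alone. The share that fell was 34.1%, beside 14.1% of all genes and 42.3% of those with a signal of 10 or more. That bright class held 36.6% of the peroxisome list. Crot, which exports shortened fatty acids as carnitine esters, read 8.01, 7.74 and 7.93 against 5.69, 6.24 and 5.98 (-1.92, SE 0.16) by 1 of 3 probe sets.

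Genes of plasma proteins fell in part, at shares to be set beside the 42.3% of all genes with a signal of 10 or more, since 81.2% of the complement list, 85.7% of the coagulation list and 84.2% of the lipoprotein list were that bright. In complement 5 of 16 fell (Mbl2, Mbl1, C8g, C4bpb and C6), 2 rose (Masp1 and C8a) and 1 was split (Masp2), with 3 falls after cyclic loess or a further quantile normalization. The mannose-binding lectins Mbl1 and Mbl2 differed by -1.16 and -1.11, with Mbl1 at 9.83, 9.70 and 9.89 against 8.30, 8.84 and 8.79. In coagulation 4 of 14 fell (Cpb2, F2, Pros1 and Fgg) and 2 rose (Fgb and Klkb1). F2, prothrombin, read 12.84, 12.71 and 12.74 against 11.51, 12 and 12.13 (-0.88, SE 0.12), and Cpb2, an inhibitor of fibrinolysis, read 11.38, 11.52 and 11.46 against 9.85, 10.50 and 10.59 (-1.14, SE 0.15). Of 19 genes of lipoproteins 9 fell and 1 rose (Apoc4). Apoa5, which promotes triglyceride hydrolysis in plasma, read 11.41, 11.64 and 11.41 against 9.88, 10.54 and 10.31 (-1.24, SE 0.14), and Scarb1, the receptor of high-density lipoprotein, differed by -0.68 by 1 of 2 probe sets.

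Of all genes with a signal of 10 or more 42.3% fell, and that class held 85.7% of the plasma protease inhibitors and 92.3% of the plasma carriers. Of 21 plasma protease inhibitors 6 fell (28.6%) and 2 rose (Serpinf2 and Tfpi). The 6 became 3 without heart-beating donor 1 or 2, without the first 30 h animal, in the 6 arrays alone, and after cyclic loess or a further quantile normalization. Serpina3m read 10.50, 10.47 and 10.22 against 9.19, 9.53 and 9.69 (-0.93, SE 0.16). Of 13 plasma carriers 2 fell (Serpina7 and Afm), 0 rose (1 had a probe set higher at an unadjusted p under 0.05 in limma) and 1 was split (Cp). Serpina7, a thyroid hormone carrier, read 8.60, 6.29 and 7.28 against 6.003, 5.78 and 5.18 (-1.73, SE 0.50, adjusted p = 0.0246), with donor 1 the highest. It lost its call without heart-beating donor 1 (-1.13) or 3 (-1.79), without the third 30 h animal (-1.50) and with a variance trend. Asgr2, a subunit of the receptor that clears desialylated plasma proteins, read 10.43, 9.73 and 10.12 against 8.59, 8.87 and 8.83 (-1.33, SE 0.16).

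In lipid synthesis the 2 directions were balanced. Of 40 genes of fatty acid and triglyceride synthesis 8 rose, 5 fell (Thrsp, Elovl5, Dgat2, Dgat1 and Pgd) and 3 were split (Srebf1, Hacd3 and Gpd1). Shares of 20% and 12.5% stood beside 13.3% and 14.1% of all genes. The rises were 5 without heart-beating donor 2 or the second 30 h animal and 13 after a further quantile normalization, and the falls were 9 without donor 3 or the second 30 h animal. Elovl5, which elongates polyunsaturated fatty acids, read 8.01, 7.79 and 8.21 against 6.11, 6.46 and 6.49 (-1.65, SE 0.16) by 1 of 2 probe sets. Dgat2, the last enzyme of triglyceride synthesis, was called lower by both (-1.14 and -0.36). Srebf1, the main activator of lipogenic genes, gave -0.99 and 0.61, the second lost without donor 3 (0.50) or the first or second 30 h animal (0.49 and 0.57).

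Of 51 genes of cholesterol and bile acid synthesis and transport 11 rose (21.6%) and 9 fell (17.6%), beside 13.3% and 14.1% of all genes. The rises were 7 without heart-beating donor 3 or in the 6 arrays alone and 6 without the second 30 h animal. Slco1b2, which takes up organic anions from the blood, read 10.64, 10.31 and 10.45 against 8.94, 9.30 and 8.95 (-1.40, SE 0.11, adjusted p = 4.84e-06). Akr1c14, a reductase of steroids and bile acid precursors with close relatives, was called lower by 2 of 3 probe sets (-1.70 and -0.83). Fdps, which makes farnesyl diphosphate, read 12.03, 11.61 and 12.29 against 10.36, 10.96 and 10.74 (-1.29, SE 0.18).

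Among genes of glycolysis, glycogen and gluconeogenesis 10 of 40 fell (25%) and 7 rose (17.5%), beside 14.1% and 13.3% of all genes. The 7 became 3 and 2 without heart-beating donors 1 and 3, 2 without the second 30 h animal and 2 in the 6 arrays alone. Ldha, lactate dehydrogenase A, read 11.74, 11.70 and 11.69 against 9.95, 10.66 and 10.73 (-1.26, SE 0.18), and Sord, which converts sorbitol to fructose, read 10.63, 10.69 and 10.60 against 9.39, 9.71 and 9.62 (-1.07, SE 0.09) by 1 of 2 probe sets. Pgm1, of glycogen breakdown, differed by -1.08. Genes of the hypoxia response, many of which encode glycolytic enzymes, did not move together. Of 41 genes 6 rose (14.6%) and 8 fell (19.5%), beside 13.3% and 14.1% of all genes. The rises were 3 without any 1 heart-beating donor or in the 6 arrays alone, and the falls were 5 with array weights. Cited2, which competes with the hypoxia factor for its coactivator, read 8.78, 8.69 and 8.30 against 7.19, 7.50 and 7.46 (-1.21, SE 0.15), and Pgk1 was called lower by 2 of 3 probe sets (-1.12 and -0.52).

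Stress and death genes gave shares near or below those over all genes. Of 52 immediate early and acute stress genes 5 rose (Mdm2, Dusp6, Zfp36, Irf1 and Klf2) and 6 fell. Without heart-beating donor 2 the counts were 10 and 1, without the third 30 h animal 3 fell, and in the 6 arrays alone 2 fell. Dusp6, a phosphatase that damps ERK signalling, was called higher by 2 of 3 probe sets, with 9.75, 8.89 and 9.42 against 10.60, 10.34 and 10.30 in the first (1.06, SE 0.20). Zfp36, which destabilizes cytokine transcripts, read 7.97, 8.38 and 7.91 against 8.97, 8.90 and 8.62 (0.74, SE 0.14), and Mdm2, the ligase of p53, differed by 0.60 by 1 of 3 probe sets. Of 42 cell death regulators 7 fell and 0 rose (limma; 3 had a probe set higher and 10 one lower at an unadjusted p under 0.05), with 3 falls among the upper 50% of probe sets by mean signal. Fas, a death receptor, read 6.55, 6.41 and 6.56 against 5.18, 5.52 and 5.28 (-1.18, SE 0.11, adjusted p = 1.56e-05) by 1 of 3 probe sets, and Mcl1, which protects from death, read 6.77, 7.14 and 6.97 against 5.995, 6.12 and 6.13 (-0.88, SE 0.12) by 1 of 2.

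**Figure D4:**
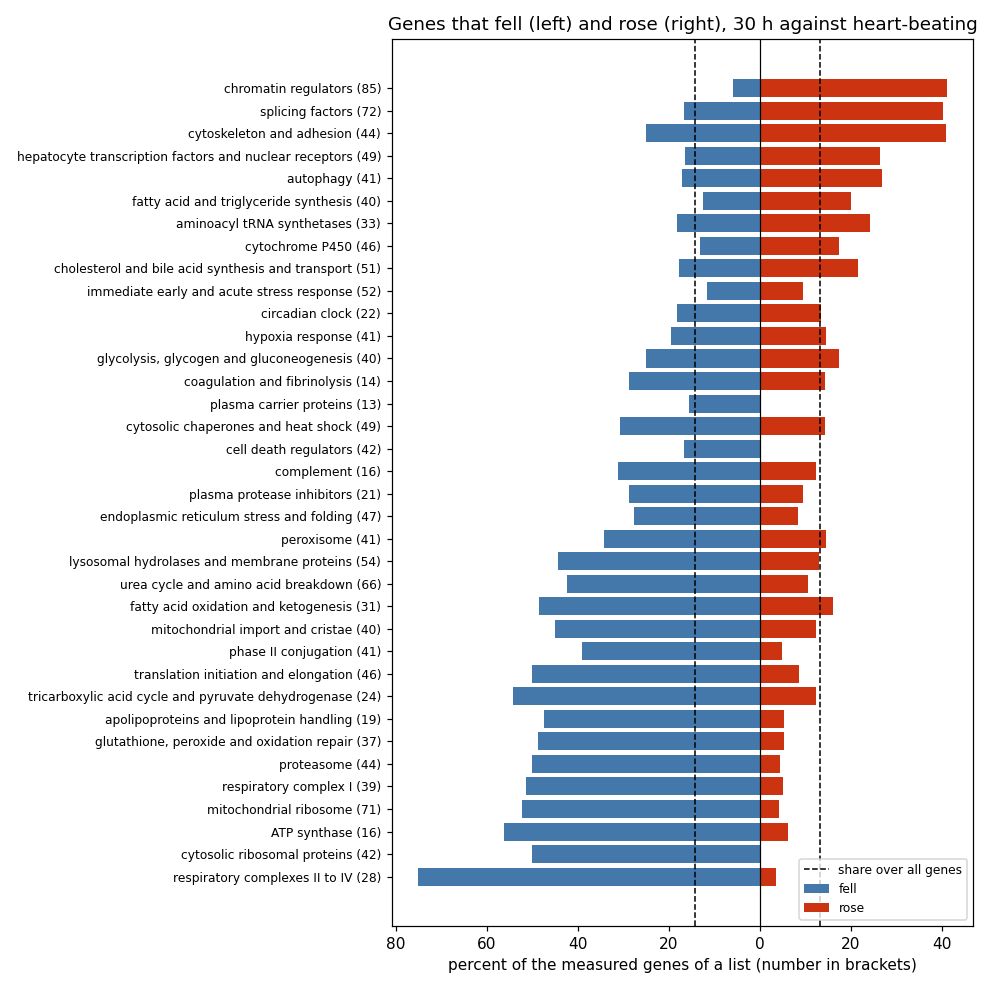
Percent of the measured genes of each of 36 lists (number measured in brackets) that fell (blue, to the left) and rose (red, to the right) at 30 h against heart-beating donors; dashed lines mark the shares over all genes, 14.1% fell and 13.3% rose. Of all genes with a signal of 10 or more 42.3% fell. Respiratory complexes II to IV (75%) had the largest share that fell and chromatin regulators (41.2%) the largest share that rose.

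Markers of other liver cells also differed. Of 13 measured markers of Kupffer cells and macrophages 9 fell (69.2%, beside 14.1% of all genes) and 0 rose, with a median of -0.79. At an unadjusted p under 0.05 in limma 11 of these markers were lower and 0 higher. The log2 of their summed signal was 12.63 to 12.71 in heart-beating donors and 12.06 to 12.25 at 30 h. Adgre1, the F4/80 antigen, read 6.22, 6.11 and 6.04 against 4.76, 4.80 and 4.64 (-1.38, SE 0.15, adjusted p = 5.45e-05). Cd5l, secreted by macrophages, was called lower by both probe sets (-1.18 and -0.87), as was Cybb, of the oxidase that makes superoxide (-1.25 and -0.37), and Cd68 differed by -0.87. In bulk RNA fewer cells of a type and less RNA per cell cannot be told apart.

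Among 17 markers of stellate cells or of fibroblasts, 9 were called higher (52.9%, beside 13.3% of all genes) and 0 lower. In limma 12 were higher and 0 lower at an unadjusted p under 0.05. The 9 became 5 without heart-beating donor 2, without the first 30 h animal or with array weights, and 4 in the 6 arrays alone. Their summed signal was 11.85 to 12.26 in heart-beating donors and 12.39 to 12.84 at 30 h. Pdgfra, a receptor of platelet-derived growth factor, read 7.85, 7.69 and 7.73 against 8.61, 8.48 and 8.20 (0.67, SE 0.09, adjusted p = 0.000285), and Colec11, a collectin of stellate cells, differed by 0.44. Of 12 endothelial markers 1 rose, Lyve1 (0.49 and 0.41 by its 2 probe sets, the first not called without heart-beating donor 2, 0.42, or the second 30 h animal, 0.32), and 0 fell (limma; 3 higher and 1 lower at an unadjusted p under 0.05). Of 6 cholangiocyte markers 0 were called (limma; 0 at an unadjusted p under 0.05).

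Among blood and pancreatic markers few passed. Of 11 markers of T and NK cells Prf1 rose (0.59) and 0 fell (limma; 2 higher and 0 lower at an unadjusted p under 0.05), and Prf1 lost its call without heart-beating donor 3 (0.39) or the first 30 h animal (0.46). Of 5 B cell markers Cd74 fell (-0.44), of 5 neutrophil markers S100a9 fell (-0.78), and of 9 acinar markers Amy2a3 and Cela1 fell, with 0 rises in these 3 lists (limma; 0 higher at an unadjusted p under 0.05). The call of S100a9 ended without heart-beating donor 2 (-0.75) or 3 (-0.64), without any 1 of the 30 h animals (-0.84 to -0.75), and without the second 4 h animal or any 1 of the 16 h animals (-0.78 for each). The part of these cells in the gene groups above was not tested.

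The 30 h arrays were also set against the earlier times, with which they share the model but no arrays. The 3' to 5' difference of Gapdh read 0.85, 1.25 and 1.06 at 16 h and 0.46, 0.27 and 0.42 at 4 h. Heart-beating donors lay at 0.31 to 0.45 and 30 h animals at 1.79 to 2.31, so it separated 16 h from both groups. Its part in the comparisons between times was not tested. Against 16 h limma called 927 probe sets higher (4.45%) and 1650 lower (7.92%), and the sum fell to 1083 without the first 16 h animal. Against 4 h it called 2468 higher (11.9%) and 2328 lower (11.2%). For comparison, at 16 h against the same heart-beating donors 844 probe sets were called higher (4.05%) and 416 lower (2%), and at 4 h 2 higher (0.0096%) and 4 lower (0.0192%). Thrsp gave a late fall, with 11.91, 12.02 and 11.71 at 4 h, 12.03, 11.36 and 11.92 at 16 h and 9.29, 9.84 and 9.50 at 30 h (-2.23, adjusted p = 1.84e-05 for 30 h minus 16 h). Ppp1r3b rose late, with 9.24, 9.82 and 9.31 at 16 h and 10.99, 11.05 and 11.11 at 30 h (1.59, adjusted p = 0.00158). Hbb, at 13.27, 13.55 and 13.43 at 16 h, overlapped its 30 h values and differed by 0.04 between those times (adjusted p = 0.957).

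Of the 5 largest falls between 16 h and 30 h 3 were in genes of the circadian clock, whose transcripts oscillate over the day. Dbp, a clock output factor, read 5.08, 5.26 and 5.13 in heart-beating donors, 9.44, 8.41 and 8.81 at 16 h and 5.16, 4.82 and 4.84 at 30 h, a difference of -3.95, adjusted p = 1.09e-07 for 30 h minus 16 h. Nr1d1, a repressor of the clock loop, read 8.55, 8.22 and 8.24 at 16 h and 5.13, 5.05 and 5.0001 at 30 h (-3.28, adjusted p = 4.20e-08). The 30 h values of Dbp overlapped those of heart-beating donors, and those of Nr1d1 lay below them (5.13, 5.05 and 5.0001 against 5.39, 5.46 and 5.38) without passing the test (adjusted p = 0.0780). Nr1d1 passed in the 6 arrays alone (adjusted p = 0.0146) and without the second or the third 4 h animal (adjusted p = 0.0362 and 0.0223). Nr1d2, the close relative of Nr1d1, was lower at 30 h than in heart-beating donors (4.96, 4.81 and 4.58 against 5.18, 5.44 and 5.29; -0.52, SE 0.15, adjusted p = 0.0284), after 7.98, 7.47 and 7.72 at 16 h. That call was lost without heart-beating donor 2 (-0.45) or 3 (-0.52) and without the second or the third 30 h animal (-0.53 and -0.42).

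Cry1, a repressor of the positive arm, moved the other way: 7.04, 7.31 and 6.58 in heart-beating donors, 6.38, 5.60 and 5.89 at 16 h and 7.53, 8.22 and 8.26 at 30 h (1.02, SE 0.23, adjusted p = 0.00584 for 30 h minus heart-beating). Per2, its partner, read 6.91, 7.08 and 7.13 in heart-beating donors and 7.59, 7.77 and 8.998 at 30 h by 1 of 2 probe sets (1.08, SE 0.28), with the third 30 h animal apart from the other two. In the 6 arrays alone Per2 was not called (adjusted p = 0.0527). Of 22 clock genes 3 rose (Cry1, Per2 and Hlf), 4 fell (Nampt, Nr1d2, Bmal1 and Rora) and 1 was split (Csnk1d) at 30 h against heart-beating donors. The shares, 13.6% and 18.2%, lay near the 13.3% and 14.1% over all genes. Of all genes with 2 or more probe sets, a class that held 54.5% of this list, 20.3% rose and 19.8% fell. Nampt, the enzyme of NAD salvage, differed by -0.43 and lost its call in the 6 arrays alone (adjusted p = 0.0563). Csnk1d, a kinase of the PER proteins, gave -0.54 and 0.37, and the second lost its call without any 1 of the arrays of the 2 groups except heart-beating donor 2 (0.28 to 0.38). The labels do not give the hour of day at which the livers were taken, and its part was not tested.

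Other genes turned between the same times. Lgalsl, a galectin-like protein, read 8.45, 8.44 and 8.37 in heart-beating donors, 6.93, 6.97 and 6.66 at 16 h and 9.02, 9.21 and 8.91 at 30 h (2.19, adjusted p = 5.42e-08 for 30 h minus 16 h), and both its probe sets were called between those times. Slc34a2, a phosphate transporter, read 5.72, 5.84 and 6.63 at 16 h and 7.64, 7.81 and 8.03 at 30 h (1.76, adjusted p = 0.000258), and against heart-beating donors it differed by 0.78 (0.64 and not called without heart-beating donor 3). Chka, a choline kinase, read 6.001, 6.65 and 6.86 at 16 h and 8.53, 8.42 and 7.91 at 30 h (1.78, adjusted p = 0.000327), and G0s2, an inhibitor of triglyceride lipase, read 8.50, 9.47 and 9.27 against 10.74, 10.74 and 11.47 (1.91, adjusted p = 0.0118). The 30 h values of Chka and G0s2 overlapped those of heart-beating donors. Hsd17b2, which oxidizes sex steroids, fell from 12.59, 12.12 and 12.37 at 16 h to 9.09, 9.38 and 9.21 at 30 h (-3.13, adjusted p = 4.20e-08), where heart-beating donors read 9.36, 9.55 and 9.68. Sds, serine dehydratase, read 7.14, 9.74 and 6.91 in heart-beating donors, 10.67, 9.19 and 9.17 at 16 h and 6.66, 6.78 and 6.65 at 30 h (-2.98, adjusted p = 0.00581).

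**Figure D5:**
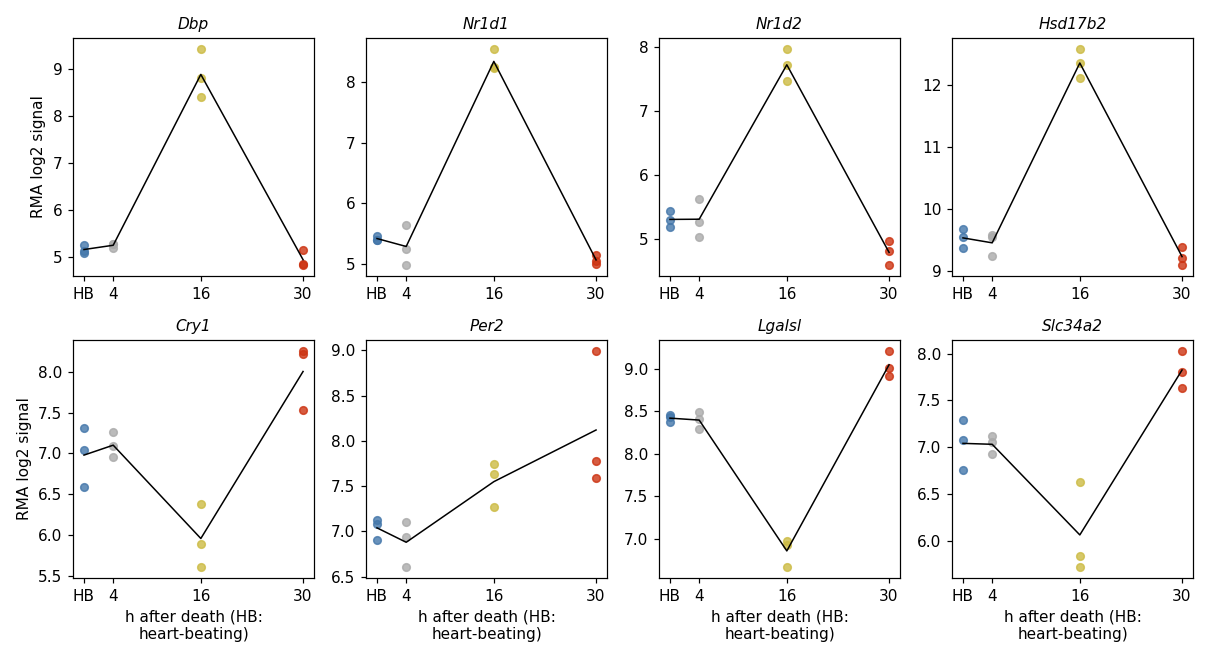
RMA log2 signal (vertical axis) of 8 genes in each array (points, 3 per group) against time after death in h, with heart-beating donors (HB) at the left; lines join group means. Dbp, Nr1d1, Nr1d2 and Hsd17b2 were high at 16 h alone among the 4 groups, while Cry1, Lgalsl and Slc34a2 were lowest at 16 h and highest at 30 h, and Per2 was highest at 30 h with 1 animal above the others.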

How the data were processed

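RNA of hepatocytes from 12 rats was hybridised to Affymetrix rat arrays, 1 array per rat. The deposited values are log2 expression values made by the authors with RMA, per the submitters' processing notes, which also name limma; versions not given in the sources used here. RMA subtracts background, equalises the arrays' distributions and fits 1 value per probe set, so differences are relative to the other transcripts on the array. Of 31099 rows, 57 controls, 436 probe sets with several gene symbols and 9780 with none were set apart. Symbols came from the platform's annotation, and 20758 of 20826 probe sets matched a gene ID of the rat reference table. All 20826 were fitted with limma 3.58.1 (R 4.3.3), 1 mean per group over the 12 arrays, with 8 residual and 4.94 prior degrees of freedom. A probe set was called at a Benjamini-Hochberg adjusted p under 0.05 over all 20826. Groups came from the titles, and the 3 arrays of a group were separate donor animals. Array medians lay between 5.83 and 5.90. Correlations between replicates were at least 0.993 in heart-beating donors and 0.991 at 30 h, and were not computed at 4 h and 16 h. The number of arrays limits the precision. The median SD over replicates was 0.0778 for heart-beating donors and 0.118 for the 30 h animals.

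Named genes were the 12 largest rises and 12 largest falls among called probe sets without overlap, the 8 largest of each direction among genes with all probe sets called alike, the 6 widest splits, up to 4 genes of each list with the smallest p, Alb, Cps1, Cyp2e1 and Hnf4a, and the 5 largest rises and falls from 16 h to 30 h. Members that a count of 5 or fewer names, and some others outside that rule, were named after their values were seen. Members and lists (46 lists, 1765 entries, 1556 measured) were chosen with earlier results of these data known. Simulated data had 20826 probe sets and 3 arrays a group. On them the fit recovered 80 of 100 differences of 0.5 and 99 of 100 of 1 log2 unit, with 11 false calls. The simulation used independent noise, few moved probe sets and no difference in RNA quality. Its counts are not error rates of the real comparison. Alternatives were other normalizations, a signal filter, other variance models, array weights, fewer arrays, a replicate block, the Gapdh difference as a covariate, 1 value per gene, all probe sets, and each array left out in turn.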

Additional observations from a re-analysis of the deposited data

Results flagged for a closer look

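In 16 genes a probe set was called one way at 16 h and the other way at 30 h against the same heart-beating donors (limma). The value between 30 h and 16 h is the difference of the other 2, so the choice of these genes fixed its sign and it is no separate evidence. Both calls held in each of 12 fits that left out 1 array, an alternative added after seeing the data, for Plpp3 and Lgalsl alone. In 9 genes the 30 h call and in 11 the 16 h call was lost in at least 1 fit. Inhba and Ptpn3 each lost a call in 9 of the 12, and their 30 h calls had adjusted p-values of 0.0499 and 0.0398 with all arrays. Of the 16 genes 9 were above heart-beating donors at 16 h and below at 30 h. Nr1d2, a clock repressor, differed by 2.42 at 16 h and -0.52 at 30 h, and by -2.94 between those times. Cpt1a, the gatekeeper of fatty acid oxidation in mitochondria, differed by 1.85 at 16 h and -0.84 at 30 h, and by -2.69 between those times. Herpud1, a protein of endoplasmic reticulum stress, differed by 0.90 at 16 h and -1.02 at 30 h, and by -1.92 between those times. Abcc2, an exporter of bilirubin conjugates, differed by 0.73 at 16 h and -0.39 at 30 h, and by -1.12 between those times. Plpp3, a lipid phosphatase, differed by 0.64 at 16 h and -0.45 at 30 h, and by -1.09 between those times. Ptpn3, a tyrosine phosphatase, differed by 0.59 at 16 h and -0.49 at 30 h, and by -1.08 between those times. Slc25a33, a mitochondrial carrier of pyrimidine nucleotides, differed by 0.60 at 16 h and -0.42 at 30 h, and by -1.02 between those times. Arhgef26 differed by 0.39 at 16 h and -0.48 at 30 h, and by -0.87 between those times. Evi5 differed by 0.40 at 16 h and -0.37 at 30 h, and by -0.77 between those times.

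The other 7 were below heart-beating donors at 16 h and above at 30 h. Pnkd differed by -0.41 at 16 h and 0.28 at 30 h, and by 0.69 between those times. Irf1, a factor of the interferon response, differed by -0.61 at 16 h and 0.53 at 30 h, and by 1.14 between those times. Mfhas1 differed by -0.62 at 16 h and 0.53 at 30 h, and by 1.15 between those times. Inhba, a subunit of activin, differed by -0.91 at 16 h and 0.65 at 30 h, and by 1.56 between those times. Slc34a2, a phosphate transporter, differed by -0.98 at 16 h and 0.78 at 30 h, and by 1.76 between those times. Cry1, a clock repressor, differed by -1.02 at 16 h and 1.02 at 30 h, and by 2.05 between those times. Lgalsl differed by -1.56 at 16 h and 0.63 at 30 h, and by 2.19 between those times.

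Probe sets without a gene symbol were left out of the comparisons above. At 30 h 1239 of 9780 of them (12.7%) were called against heart-beating donors, 886 higher and 353 lower, and of 436 with several symbols 169 were called (38.8%), 41 higher and 128 lower.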

How the results depend on the processing

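The 4865 calls became 3461 to 4778 when 1 array was left out, those of at least 2-fold (306) 221 to 407, genes called (4165) 3058 to 4120, genes with all probe sets called alike (167) 96 to 164, and the calls against 16 h (2577) 1083 to 3012 and against 4 h (4796) 3770 to 4756. The Gapdh difference ranged from 1.42 to 1.67, that of Actb from 0.98 to 1.08 (1.25 after a further quantile normalization) and that of hexokinase from -0.15 to -0.043. In the 6 arrays of the 2 groups alone 80 genes had all probe sets called alike. Over all probe sets, with or without a symbol, 6130 were called. The share of calls that were higher was 48.7%, and 44.5% (without the second 30 h animal) to 52.3% (after a further quantile normalization or among the upper 50% of probe sets) in the alternatives other than the covariate below.

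With the Gapdh difference as a covariate limma called 0 probe sets at 30 h against heart-beating donors, 0 of at least 2-fold, 0 genes, 0 genes with all probe sets alike and 0 probe sets against 4 h, with 3055 at an unadjusted p under 0.05 in the first, and 7 against 16 h. The 2 groups do not overlap in that covariate, and the cause was not tested. Of all 261 called probe sets of the genes chosen by the naming rule, 94 reversed with the covariate. A smaller set held the probe set of smallest p of each such gene in the text, and the opposite call of split genes. Genes named outside that rule, some flagged genes among them, were not in it. Of the 168 called probe sets of this smaller set 126 kept their direction with the covariate and 42 did not. The differences that turned positive were Akr1c14 0.64, Atf6 0.19, Atp5mg 0.22, Atp5pb 0.055, Cd68 0.18, Cpb2 0.52, Cps1 0.39, Csnk1d 0.42, Cyp2e1 0.30, Decr1 0.27, Dgat2 0.10, Dld 0.94, F2 0.23, Gpx4 0.43, Gstm2 0.36, Hacd3 0.72, Ldha 0.20, Mbl1 0.25, Papola 0.17, Pgk1 0.96, Pgm1 0.49, Por 0.54, Psmd8 0.61, Rdx 0.38, Rpl41 0.021, Rpl7 0.12, Rps16 0.20, Rps24 0.38, Sdhd 0.23, Serpina3m 0.19, Sf3b5 0.14, Slc25a13 0.069, Smarca4 0.17, St13 0.53 and Tdo2 0.28. Those that turned negative were Alas2 -0.40, Dusp6 -0.30, Hnrnpa2b1 -0.23, Pdgfra -0.0078, Prf1 -1.02, Xist -0.20 and Ybx3 -0.13. With the covariate 0 of these 42 passed (limma, adjusted p from 0.247 to 0.993) and the median SE was 0.307, so their signs are not settled. Alb turned to 0.20 after cyclic loess (adjusted p = 0.0325). Of the same 168 calls 17 were lost in at least 1 of the other alternatives, and of 54 list counts of 5 or more 29 moved by over 1.5 times in at least 1.

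The replicate block used the replicate numbers of the labels and gave 4482 calls; it moved 6 of 92 list counts by over 1.5 times, 2 of them counts of 5 or more (chromatin regulators that fell from 5 to 3, glycolysis genes that rose from 7 to 4). Correlations between the deviations of same-numbered arrays were -0.274 to 0.109 over all pairs of groups. Between heart-beating donors and 30 h they were 0.00899 to 0.0598. With 3 arrays a group these values cannot show whether same-numbered animals were handled together, and the main fit used no pairing.

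The signal sets the limits. Probe sets under a log2 signal of 5 were called in few cases, the brightest (Alb) lie near the top of the scale, and with 3 animals a group an exact test of a single value cannot go below 0.1.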
